A study of Mus musculus with 6 samples.

Results

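The genes described here are p53 targets and apoptosis genes: p53 and its relatives and regulators, genes that p53 induces, the BCL2 family, and caspases with their partners. Of 39 such genes, 37 had a probe set annotated to their symbol alone on the arrays, of 18193 genes read in this way, and each gene was read from whichever of its probe sets was brightest on average over the 6 arrays. Trp53 itself and the pore-forming BCL2 family gene Bax had no such probe set and were not analysed here. The arrays measured embryonic stem (ES) cells from 129SV mice that were either Med23 knockout or wildtype, with 3 arrays of each genotype described as biological replicates. Both groups had been in fresh complete ESC medium for 24 hours when they were harvested. Med23 is a subunit of Mediator, the complex that carries signals from transcription factors to RNA polymerase II. The labels do not say whether the knockout cells were 1 clone, how the allele was made or whether cells were grown on feeders. An effect of Med23 loss and any other difference between the 2 cell populations therefore cannot be told apart.

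p53 is a transcription factor that is held at a low level by the ubiquitin ligase Mdm2 and its partner Mdm4, and that accumulates when DNA is damaged or cells are stressed. It then induces inhibitors of the cell cycle, repair genes, its own inhibitor Mdm2, and genes that open the mitochondrial route to cell death. On that route, BH3-only proteins such as Puma, Noxa and Bid tip the balance between the pore-forming proteins Bax and Bak and the protective proteins Bcl2, Bcl-xL and Mcl1, and released cytochrome c then assembles Apaf1 and caspase-9. ES cells carry abundant p53, cycle fast with a short first gap phase, and die readily after damage.

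Of the 37 genes, 13 were lower and 1 was higher in Med23 knockout cells at a limma adjusted p under 0.05, and 23 did not pass. That is 35.1% lower and 2.7% higher, against 10.4% lower and 8.53% higher among all 18193 genes. The median log2 fold change, knockout minus wild-type, was -0.24 over the 37 genes and 0.02 over all genes. Most changes were small: only Zmat3 passed with at least a 2-fold difference, a size reached by 1.93% of all genes in the lower direction and 0.676% in the higher direction. The groups did not overlap in 23 of the 37 genes (62.2%), against 40.9% of all genes. Genes of growth arrest held 6 of the 13 lower calls. The gene that was higher was Casp9.

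The arrays had medians of 4.61 to 4.64 on the log2 scale, and the median over all probe sets, called the array median from here on, was 4.62; a mean below it cannot be separated from background. Their number limits the precision of every value. Wild-type replicate 1 stood apart from its group, with correlations of 0.9941 and 0.993 to its fellow replicates, which correlated at 0.9974 with each other, and with 752 probe sets at least 2-fold below their mean. Without it, 14 of the 37 genes were lower and 2 higher, against 10.4% and 10.1% of all genes. Med23 itself read 7.40, 7.37 and 7.33 in knockout replicates 1 to 3 and 8.95, 8.86 and 8.84 in wild-type replicates 1 to 3, which put the log2 fold change at -1.52 (SE 0.06, adjusted p = 2.69e-05); the sources used here do not place its probe set relative to the deletion. Of 12 pluripotency markers, 3 were lower, namely Klf4 (log2 fold change -0.63), Dppa4 (-0.34) and Tdgf1 (-0.28), and 1 was higher, Fbxo15, with means of 12.16 in knockout and 11.16 in wild-type cells. That is 25% lower and 8.33% higher, against 10.4% and 8.53% of all genes. The balance depended on wild-type replicate 1. When it was left out, 4 of the 12 were higher and 2 lower, against 10.1% and 10.4% of all genes. The call of Tdgf1 was lost in that fit (adjusted p = 0.0803). None of the 12 lay below the array median throughout, and their summed linear signal spanned 63480 to 64720 in knockout arrays and 62050 to 65980 in wild-type arrays.

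Some markers of other cell types differed between the genotypes. Of 16 endoderm markers, 13 were lower and none higher, and their summed linear signal was 1107 to 1243 in knockout arrays and 5008 to 6276 in wild-type arrays; Afp alone stayed below the array median throughout. Of 11 trophoblast markers, 4 were lower, all of them keratin genes. The 11 had summed signals of 1262 to 1337 in knockout arrays and 3241 to 3651 in wild-type arrays. Most of that difference came from Krt8 (means of 8.03 and 10.55 in knockout and wild-type cells) and Krt18 (8.28 and 9.95). The other 7 markers did not pass, and Cdx2, Elf5 and Tpbpa were below the array median throughout. Of 12 fibroblast markers, Thy1 (-0.73) and Twist1 (-0.61) were lower, and Fn1 (0.39) and Vim (0.23) were higher. The 12 had summed signals of 4049 to 4152 in knockout arrays and 3261 to 3399 in wild-type arrays. Most of that signal came from Fn1 (means of 11.08 and 10.69 in knockout and wild-type cells) and Vim (10.79 and 10.56). Among the 12, 8 stayed below the array median throughout, the collagen genes Col1a1, Col1a2 and Col3a1 included. The lower shares were 81.2% in the endoderm, 36.4% in the trophoblast and 16.7% in the fibroblast list, against 10.4% of all genes. The higher shares were 0%, 0% and 16.7%, against 8.53%. Fewer cells of a type and less RNA per cell cannot be told apart in such samples. Whether such cells were present, and whether they had a part in the results on p53 targets and apoptosis genes, was not tested.

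Promoter sequences are shown first because p53 acts by binding DNA and the genes that were lower include several of its direct targets. A window of 300 bases, 250 before a gene's start and 50 after it, was available from RefSeq (build GRCm38.p6) for 31 of the 39 genes, with 44 windows in all. Each was searched on both strands for the p53 decamer, the unit that occurs as a pair in p53 response elements, with no mismatch allowed. It was present in 11 of the 44 windows, belonging to 10 genes, and in 8.36% of all 32851 windows. The holders were Cdkn1a, Gadd45a, Mdm2 and Sesn1, which are 4 of the 11 lower genes that had a window. Aen, Ccng1, Ei24 and Polk, which are 4 of the 17 genes with a window that did not pass, held it too, and so did the unmeasured Bax and Trp53. A match describes letters and not binding, and the distant or intronic elements of these genes lie outside such windows. The windows of the 4 lower holders follow, written 5′ to 3′ with the decamer in capitals.
Cdkn1a, chr17:29090729-29091028, plus strand: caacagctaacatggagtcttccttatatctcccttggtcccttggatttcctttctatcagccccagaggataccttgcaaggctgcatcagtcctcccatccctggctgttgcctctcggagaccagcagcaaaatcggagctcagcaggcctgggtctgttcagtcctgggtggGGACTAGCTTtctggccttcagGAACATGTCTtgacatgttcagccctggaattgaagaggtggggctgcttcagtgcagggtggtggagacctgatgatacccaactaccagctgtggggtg
Gadd45a, chr6:67037358-67037657, minus strand: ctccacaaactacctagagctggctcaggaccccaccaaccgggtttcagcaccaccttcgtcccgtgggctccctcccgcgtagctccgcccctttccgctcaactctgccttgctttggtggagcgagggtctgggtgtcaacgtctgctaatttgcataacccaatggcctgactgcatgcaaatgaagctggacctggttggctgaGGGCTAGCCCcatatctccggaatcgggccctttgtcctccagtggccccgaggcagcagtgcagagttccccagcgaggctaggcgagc
Mdm2, chr10:117710709-117711008, minus strand: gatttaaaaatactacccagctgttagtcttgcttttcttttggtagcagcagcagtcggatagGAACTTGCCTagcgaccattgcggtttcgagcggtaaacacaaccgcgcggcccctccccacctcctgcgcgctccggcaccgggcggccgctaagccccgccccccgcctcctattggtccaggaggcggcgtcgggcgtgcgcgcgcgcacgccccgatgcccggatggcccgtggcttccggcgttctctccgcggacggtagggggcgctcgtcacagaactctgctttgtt
Sesn1, chr10:41887189-41887488, plus strand: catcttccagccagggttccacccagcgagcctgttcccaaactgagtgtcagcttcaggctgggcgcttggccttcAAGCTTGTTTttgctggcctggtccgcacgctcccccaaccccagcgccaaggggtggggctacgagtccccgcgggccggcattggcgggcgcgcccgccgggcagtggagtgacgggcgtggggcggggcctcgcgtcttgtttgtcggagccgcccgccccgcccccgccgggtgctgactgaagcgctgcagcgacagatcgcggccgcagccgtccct

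The Cdkn1a window belongs to the upstream of its 2 starts and holds 2 decamers, GGACTAGCTT and GAACATGTCT. Among the genes that did not pass, the decamer read GGGCAAGCCT in Ccng1, GGGCATGCCC in Ei24, GAACTAGCCT in Polk and GGGCTTGTCC in Aen, where it lies in both of 2 overlapping windows. A CArG box, the element bound by serum response factor, was in 0 of the 44 windows and in 1.63% of all windows. The EGR site GCGNGGGCG was in 5 of the 44 windows and in 5.55% of all windows; Gadd45b and Sesn1 among the lower genes held it, and so did Bbc3 and Bcl2l11 among those that did not pass. In Sesn1, which held both motifs in 1 window, they did not overlap.

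**Figure D1:**
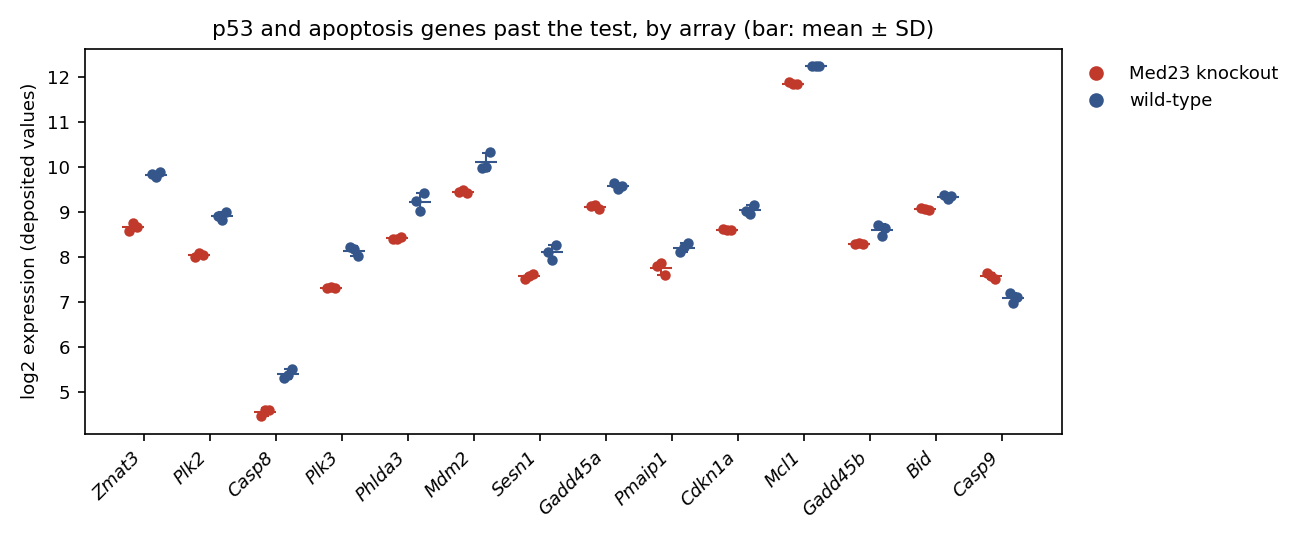
Log2 expression of the 14 genes past the test, ordered by fold change, with a point per array and a bar for the mean ± SD of 3 arrays; Med23 knockout in red, wild-type in blue. In all 14 the groups are apart, with knockout below wild-type in 13 and above it in Casp9.

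Among the regulators, Mdm2, which encodes the ubiquitin ligase that marks p53 for destruction and is itself a p53 target, was lower in the knockout. It read 9.43, 9.47 and 9.40 in knockout replicates 1 to 3 and 9.97, 9.99 and 10.32 in wild-type replicates 1 to 3. The groups did not overlap, and wild-type replicate 3 was the highest array. The log2 fold change was -0.66 (SE 0.10, adjusted p = 0.00615), or 1.58-fold lower, and another of its 3 probe sets passed in the same direction. Its partner Mdm4, which restrains p53 activity, had overlapping groups with means of 9.40 ± 0.04 in knockout and 9.46 ± 0.14 in wild-type cells (SD, n = 3 each); the 95% interval of its log2 fold change ran from -0.25 to 0.14. Trp73, a p53 relative with roles in neurons and ciliated cells, read 5.17, 5.03 and 5.12 in knockout arrays and 5.70, 5.30 and 5.52 in wild-type arrays. Those groups did not overlap, and the log2 fold change of -0.40 (SE 0.11) just missed the threshold (adjusted p = 0.051). A second Trp73 probe set gave 0.009, at means of 4.51 and 4.50 in knockout and wild-type cells, both below the array median. Trp63, the relative that specifies stratified epithelium, lay below the array median in both groups, at 3.54 and 3.47 in knockout and wild-type means.

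Of 8 genes of growth arrest, 6 were lower and none higher, against 10.4% and 8.53% of all genes, and Ccng1 and Gadd45g did not pass. The median log2 fold change of the 8 was -0.47, and it was above 0 in 0 of the 8, against 10012 of all 18193 genes. Zmat3, a p53 target encoding an RNA-binding zinc finger protein, showed the largest difference of the 37 genes. It read 8.56, 8.75 and 8.67 in knockout arrays and 9.83, 9.77 and 9.87 in wild-type arrays. The knockout arrays were all low and the wild-type arrays all high, with no overlap. The log2 fold change was -1.16 (SE 0.07, adjusted p = 0.000127), or 2.24-fold lower.

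Plk2 and Plk3 encode polo-like kinases that respond to stress and, unlike the mitotic kinase Plk1, are also induced as immediate early genes by serum. Plk2 read 8.00, 8.08 and 8.04 in knockout arrays and 8.90, 8.81 and 9.00 in wild-type arrays, a log2 difference of -0.86 (SE 0.07, adjusted p = 0.00041). Plk3 read 7.31, 7.31 and 7.30 in knockout arrays and 8.22, 8.17 and 8.00 in wild-type arrays, a log2 difference of -0.82 (SE 0.07, adjusted p = 0.000586). Both were about equally lowered, by 1.82-fold and 1.77-fold, and the knockout arrays of Plk3 differed by little from each other (SD 0.006). A second, dim probe set of Plk2, with means of 2.94 and 3.04 in knockout and wild-type cells, did not pass.

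Cdkn1a, which encodes the cyclin-dependent kinase inhibitor p21 and is the best known p53 target, was 1.35-fold lower. It read 8.62, 8.59 and 8.59 in knockout arrays and 9.01, 8.95 and 9.15 in wild-type arrays. The groups were apart, and the log2 fold change was -0.44 (SE 0.07, adjusted p = 0.00788); its second probe set also passed, at -0.54. The Gadd45 genes encode small stress sensors that act on MAP kinase signalling and on the cell cycle, and Gadd45a is the member that p53 induces. Gadd45a read 9.13, 9.15 and 9.05 in knockout arrays and 9.63, 9.50 and 9.58 in wild-type arrays, with a log2 difference of -0.46 (SE 0.07, adjusted p = 0.00432). Gadd45b read 8.28, 8.30 and 8.27 in knockout arrays and 8.71, 8.46 and 8.64 in wild-type arrays, a smaller difference of -0.32 on the log2 scale (SE 0.08, adjusted p = 0.0396). Its call was lost without wild-type replicate 1 (adjusted p = 0.0674), without wild-type replicate 3 (adjusted p = 0.1002) and without any 1 of the knockout arrays (adjusted p up to 0.127). Gadd45g had means of 5.89 ± 0.09 in knockout and 6.37 ± 0.29 in wild-type cells (SD, n = 3 each); its groups did not overlap, yet the wider spread left it short of the threshold (log2 fold change -0.48, SE 0.14, adjusted p = 0.0721).

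Ccng1, a p53 target encoding cyclin G1, gave a value that moved with single wild-type arrays. It read 10.76, 10.71 and 10.66 in knockout arrays and 10.44, 11.05 and 11.40 in wild-type arrays, so that wild-type replicate 1 was below all knockout arrays and its fellow replicates above them. With all arrays the log2 fold change was -0.25 (SE 0.22, adjusted p = 0.535), without wild-type replicate 1 it was -0.52 (adjusted p = 0.0313), and without wild-type replicate 3 it was -0.0352 (adjusted p = 0.932). A second Ccng1 probe set passed with all arrays at -0.56 (SE 0.07, adjusted p = 0.00298), while the third did not pass at -0.50 (SE 0.16, adjusted p = 0.0934).

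**Figure D2:**
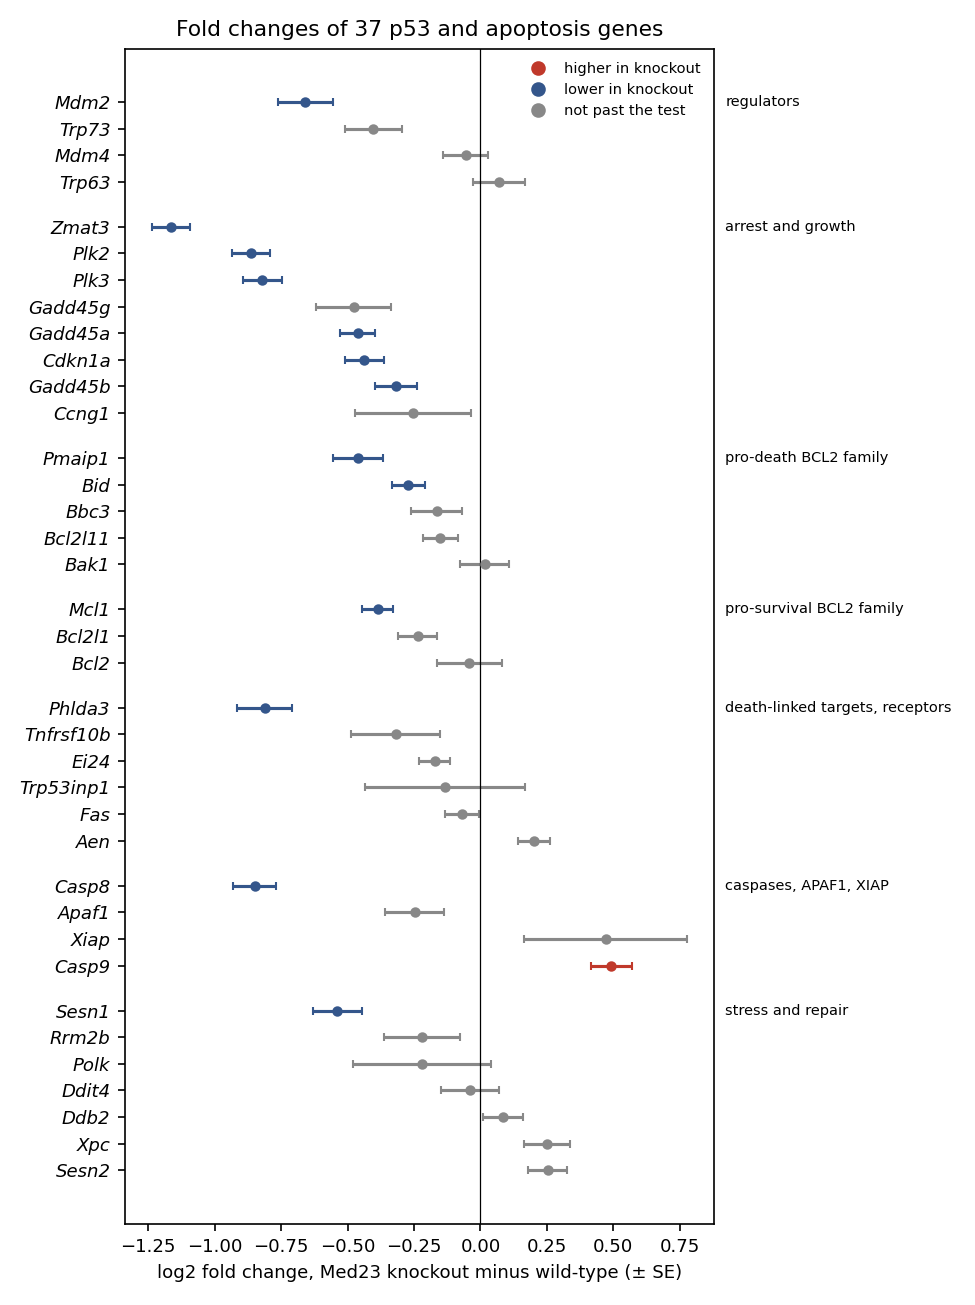
Log2 fold change, Med23 knockout minus wild-type, of the 37 genes grouped by role, with bars of ± SE from the limma fit; blue points were lower and the red point higher past the test, and grey points did not pass. The arrest genes all lie left of 0 and Zmat3 lies farthest left, at -1.16.

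Within the BCL2 family, 3 of 8 measured genes were lower and none higher, against 10.4% and 8.53% of all genes. The 3 fell on both sides of the family's divide, and the call of each was lost under at least 1 alternative. Of 5 genes that promote death, Pmaip1 and Bid passed. Pmaip1 encodes Noxa, a BH3-only protein that neutralises Mcl1; it read 7.78, 7.86 and 7.58 in knockout arrays and 8.10, 8.21 and 8.29 in wild-type arrays, a log2 difference of -0.46 (SE 0.09, adjusted p = 0.0181). Bid, whose product is cut by caspase-8 and carries the death receptor signal to mitochondria, read 9.09, 9.05 and 9.03 in knockout arrays and 9.36, 9.28 and 9.35 in wild-type arrays, a log2 difference of -0.27 (SE 0.06, adjusted p = 0.0268). Neither gene's groups overlapped, but both calls were lost in some fits without 1 array, where adjusted p reached 0.0634 for Pmaip1 without wild-type replicate 2 and 0.109 for Bid without knockout replicate 3. That of Pmaip1 was also lost without wild-type replicate 3 or knockout replicate 1 or 3, and that of Bid without wild-type replicate 3 or knockout replicate 1 or 2.

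The other genes that promote death did not pass. Bbc3, which encodes Puma, a direct p53 target able to bind every protective BCL2 protein, had means of 7.45 ± 0.08 in knockout and 7.62 ± 0.16 in wild-type cells (SD, n = 3 each), with overlapping groups and a 95% interval of the log2 fold change of -0.39 to 0.06. Bcl2l11, encoding the BH3-only protein Bim, read 8.82, 8.88 and 8.97 in knockout arrays and 9.06, 9.06 and 9.01 in wild-type arrays. The difference of -0.15 on the log2 scale (SE 0.07, adjusted p = 0.202) was small, and 1 of its other 4 probe sets passed at -0.43 (adjusted p = 0.0378). Bak1, which encodes a pore-forming protein, gave means of 7.38 and 7.36 in knockout and wild-type cells, and the 95% interval of its log2 fold change was -0.20 to 0.23.

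Among the 3 protective genes, Mcl1 was lower. Its product is a short-lived guardian of ES cell survival. It read 11.87, 11.84 and 11.83 in knockout arrays and 12.23, 12.23 and 12.23 in wild-type arrays. The groups were tight and apart, with a log2 difference of -0.39 (SE 0.06, adjusted p = 0.00471). Of its 6 probe sets, 2 passed and the other 4, with means between 10.60 and 11.32, had log2 fold changes of only -0.05 to 0.01. Averaging all 6 gave -0.16 (adjusted p = 0.0901), so the change of Mcl1 depends on the probe set. Bcl2l1, encoding Bcl-xL, read 8.24, 8.17 and 8.24 in knockout arrays and 8.56, 8.43 and 8.37 in wild-type arrays, without overlap but short of the threshold (log2 fold change -0.24, SE 0.07, adjusted p = 0.0794). Bcl2 was near the array median in both groups (5.03 ± 0.23 in knockout and 5.07 ± 0.11 in wild-type cells, SD, n = 3 each), with overlapping groups.

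Of 6 death-linked targets and receptors, Phlda3 alone passed. Phlda3 is a p53 target whose pleckstrin homology protein competes with the survival kinase Akt for membrane lipids. It read 8.40, 8.38 and 8.43 in knockout arrays and 9.24, 9.01 and 9.41 in wild-type arrays. The groups lay apart, with a log2 difference of -0.81 (SE 0.10, adjusted p = 0.00256), or 1.75-fold lower. Aen, encoding a p53-induced exonuclease that acts on DNA in dying cells, had higher values in knockout arrays: it read 10.41, 10.48 and 10.47 in knockout arrays and 10.27, 10.26 and 10.23 in wild-type arrays. This probe set missed the threshold at 0.20 (SE 0.06, adjusted p = 0.069), and 2 of its other 3 probe sets passed, at 0.47 and 0.27. The mean of all Aen probe sets passed too, at 0.30 (adjusted p = 0.00669).

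The remaining genes of that group did not pass with all arrays. Ei24, a p53-induced gene for an endoplasmic reticulum protein involved in autophagy, gave means of 10.68 ± 0.02 in knockout and 10.85 ± 0.03 in wild-type cells (SD, n = 3 each); the log2 fold change was -0.17, with groups that did not overlap (adjusted p = 0.105). The death receptor gene Fas was below the array median, with means of 2.71 and 2.77 in knockout and wild-type cells, so that no level could be told from background. Tnfrsf10b, which encodes the receptor for the ligand TRAIL, had overlapping groups at 5.12 ± 0.12 in knockout and 5.44 ± 0.34 in wild-type cells (SD, n = 3 each). Trp53inp1, encoding a stress protein that promotes p53 phosphorylation, read 10.48, 10.45 and 10.52 in knockout arrays and 9.84, 10.93 and 11.09 in wild-type arrays. Wild-type replicate 1 was again the lowest array while its fellows were the highest. The log2 fold change was -0.13 (SE 0.30, adjusted p = 0.837) with all arrays and -0.52 (adjusted p = 0.00735) without that array, but 0.0221 (adjusted p = 0.981) without wild-type replicate 2 and 0.103 (adjusted p = 0.875) without wild-type replicate 3.

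**Figure D3:**
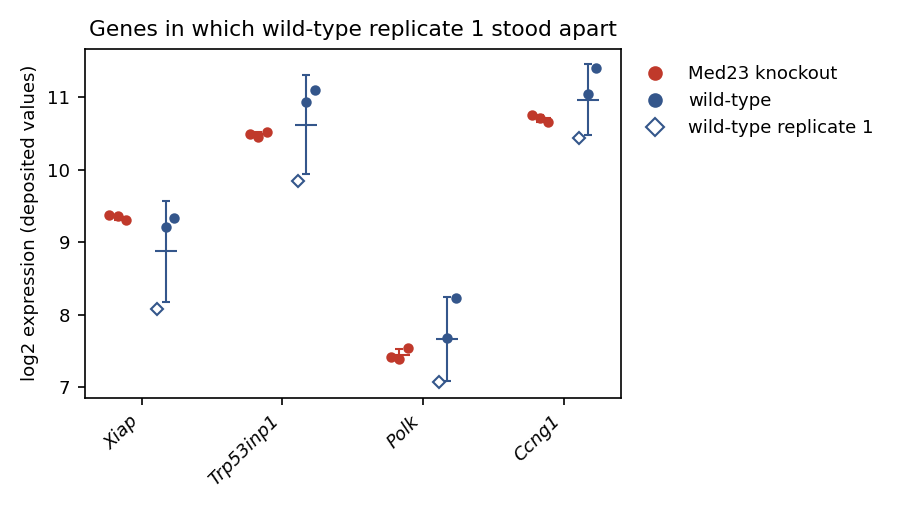
Log2 expression by array of the 4 genes in which wild-type replicate 1 (open diamonds) lay more than 0.5 below the mean of its fellow replicates, with mean ± SD of 3 arrays; Med23 knockout in red, wild-type in blue. In Ccng1, Trp53inp1 and Polk the knockout arrays lie between wild-type replicate 1 and the other wild-type arrays, and in Xiap they lie level with those other arrays.

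Wild-type replicate 1 thus widened the wild-type spread in a few genes. It lay more than 0.5 below the mean of replicates 2 and 3 in Xiap (-1.19), Trp53inp1 (-1.17), Polk (-0.89) and Ccng1 (-0.79), and in none of the 37 genes by as much above it. The median of that difference over the 37 genes was -0.003, with 20 genes below 0, against 0.063 and 6115 of 18193 over all genes. The SD over 3 arrays was smaller in the knockout than in the wild-type group for 30 of the 37 genes, with medians of 0.05 and 0.11. Over all genes the medians were 0.07 in knockout and 0.11 in wild-type arrays, so the wider wild-type spread was not particular to the 37.

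The caspase genes moved in opposite directions. Casp8, the initiator caspase of death receptors, read 4.45, 4.59 and 4.60 in knockout arrays and 5.31, 5.37 and 5.51 in wild-type arrays. Its groups were apart, with a log2 difference of -0.85 (SE 0.08, adjusted p = 0.00072); the knockout mean of 4.55 lay below the array median, which leaves the size of the difference uncertain. Casp9, the initiator caspase of the mitochondrial route, read 7.64, 7.58 and 7.51 in knockout arrays and 7.19, 6.97 and 7.10 in wild-type arrays. With each gene read from its brightest probe set, Casp9 was the one gene higher in the knockout, at 0.49 on the log2 scale (SE 0.08, adjusted p = 0.00651), or 1.41-fold. Its other 2 probe sets did not pass (-0.09 and -0.03), and the mean of all 3 gave 0.12 (adjusted p = 0.263).

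Apaf1, the scaffold that activates caspase-9 and a p53 target, read 8.06, 8.30 and 8.20 in knockout arrays and 8.32, 8.33 and 8.64 in wild-type arrays. These groups nearly touched, and the difference of -0.25 (SE 0.11, adjusted p = 0.208) did not pass. Xiap, an inhibitor of caspases, read 9.37, 9.35 and 9.30 in knockout arrays and 8.07, 9.20 and 9.33 in wild-type arrays. Its log2 fold change was 0.47 (SE 0.31, adjusted p = 0.396) with wild-type replicate 1 and 0.07 (adjusted p = 0.554) without it.

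Of 7 genes for stress resistance and DNA repair, Sesn1 alone passed. Sestrins are p53 targets that restrain the growth kinase complex mTORC1 when nutrients or redox balance are disturbed. Sesn1 read 7.51, 7.57 and 7.61 in knockout arrays and 8.11, 7.93 and 8.26 in wild-type arrays, with a log2 difference of -0.54 (SE 0.09, adjusted p = 0.00912). None of the other Sesn1 probe sets passed (-0.29, 0.06 and -0.36), and the mean of all gave -0.28 (adjusted p = 0.0422). Sesn2, a relative of Sesn1 that is also induced by the stress factor ATF4, read 8.72, 8.74 and 8.78 in knockout arrays and 8.61, 8.45 and 8.42 in wild-type arrays. On these brightest probe sets the groups of each sestrin gene did not overlap. Sesn2 missed the threshold with all arrays (0.25, SE 0.07, adjusted p = 0.0643) but passed without wild-type replicate 1 (0.31, adjusted p = 0.0218). A second Sesn2 probe set had overlapping groups and gave 0.08 (adjusted p = 0.528). The mean of both Sesn2 probe sets gave 0.17 (adjusted p = 0.102).

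The repair genes showed no call. Xpc, which detects bulky lesions for nucleotide excision repair, had means of 7.21 ± 0.04 in knockout and 6.96 ± 0.15 in wild-type cells (SD, n = 3 each) and a log2 fold change of 0.25 (adjusted p = 0.113). Ddb2, which recognises ultraviolet damage and is p53-induced in human cells, had overlapping groups and a 95% interval of -0.09 to 0.26. Polk, a translesion DNA polymerase, read 7.42, 7.38 and 7.54 in knockout arrays and 7.07, 7.69 and 8.24 in wild-type arrays, the widest wild-type spread of the repair genes. Rrm2b, the p53-induced subunit of ribonucleotide reductase, overlapped between groups (6.63 ± 0.15 in knockout and 6.85 ± 0.26 in wild-type cells, SD, n = 3 each). So did Ddit4, an mTORC1 inhibitor induced by hypoxia and stress, at means of 9.45 and 9.49 in knockout and wild-type cells.

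**Figure D4:**
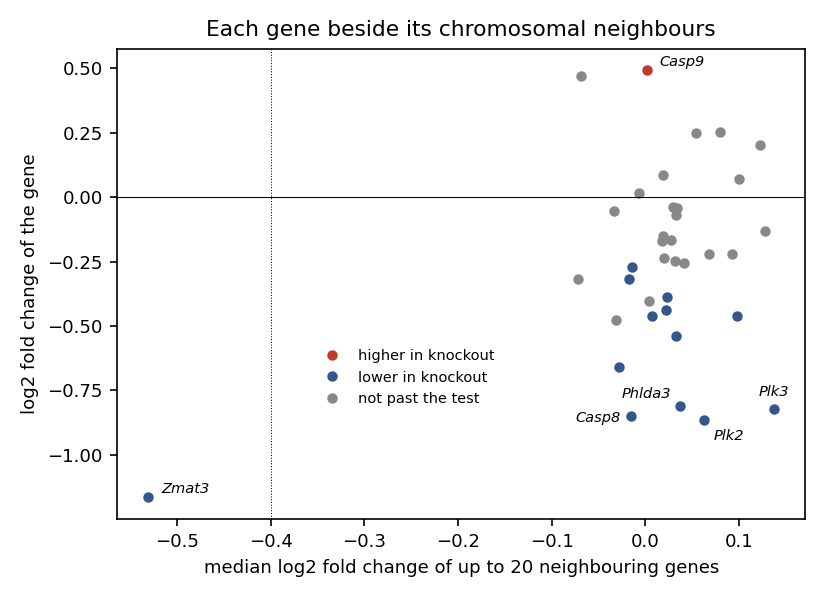
Log2 fold change of each of the 37 genes (vertical) against the median log2 fold change of its neighbours in gene order (horizontal), 10 genes with a mean log2 value above 7 on each side; the dotted line marks -0.4. Zmat3 lies alone at the left, at -0.53, and the other lower genes have neighbours with medians near 0.

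Neighbouring genes can differ together between cell populations, so each gene was set beside its neighbours in the gene order of the GRCm38.p6 assembly. Zmat3, on chromosome 3, was the only one of the 37 whose 20 neighbours had a median at or below -0.4; theirs was -0.53, and the value of Zmat3 minus that median was -0.63. For the other 36 genes the neighbours' median lay between -0.07 and 0.14. Leaving Zmat3 out, 12 of 36 genes were lower and 1 higher. Mcl1 also lies on chromosome 3, where its neighbours had a median of 0.02.

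Other genes of the pathway were taken from 6 lists. Of 38 further p53 targets measured, 18 were lower and 3 higher, 47.4% and 7.89%, against 10.4% and 8.53% of all genes, and their median log2 fold change was -0.36. With only probe sets above the array median kept, 20 of 36 were lower and 4 higher, against 2128 and 2030 of 11606 genes. Without knockout replicate 2 the lower count was 11, and the higher count was 1 without any 1 of the knockout arrays or without wild-type replicate 2. Perp, which encodes a membrane protein of desmosomes and p53-dependent death, averaged 6.54 ± 0.08 in knockout and 9.34 ± 0.18 in wild-type cells (SD, n = 3 each). Its log2 fold change was -2.80 (SE 0.10, adjusted p = 1.92e-05). Sfn, which encodes the epithelial cell cycle inhibitor 14-3-3 sigma, was lower at -2.07 (SE 0.07), with means of 6.30 and 8.37 in knockout and wild-type cells. Dram1, a lysosomal autophagy gene, was lower at -1.93 (SE 0.16); its knockout mean of 3.54 was below the array median, so that size is uncertain. Nupr1, a stress-induced chromatin protein gene, was higher at 1.69 (SE 0.09), with means of 10.66 and 8.96 in knockout and wild-type cells.

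Of 28 genes that act on p53 or signal DNA damage, 3 were higher and 2 lower, and their median log2 fold change was 0.06. These shares, 10.7% and 7.14%, were near the 8.53% and 10.4% of all genes. With only probe sets above the array median kept, 4 of the 28 were higher and 3 lower, against 2030 and 2128 of 11606 genes. H2ax, the histone variant that is phosphorylated at breaks, was higher at 0.71 (SE 0.08, adjusted p = 0.00186), as were Cdkn2a, which encodes p16 and the Mdm2 inhibitor Arf, at 0.50 and the checkpoint adaptor gene Mdc1 at 0.40. Ing1, a chromatin reader gene of chromosome 8, was lower at -0.56, and the median of its neighbours was -0.47. Without knockout replicate 2 the calls of Cdkn2a (adjusted p = 0.0547) and Mdc1 (adjusted p = 0.0717) were lost, and that of Mdc1 also without knockout replicate 1 or wild-type replicate 2 or 3. Whether this list and the p53 targets differ was not tested.

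In the rest of the BCL2 family, 2 of 12 genes were lower and 1 higher. Bnip3, a hypoxia-induced gene of mitophagy, was higher at 1.46 (SE 0.11, adjusted p = 0.000265), and the protective gene Bcl2l2 was lower at -0.69, within a stretch of chromosome 14 where its neighbours had a median of -0.82. Bcl2l15 was lower at -0.44 but lay below the array median in both groups. Of 21 further caspases, inhibitors and execution genes, 2 were lower and 1 higher: the nuclease gene Dffb (-0.47), the chromatin condensation gene Acin1 (-0.36, with neighbours at -0.78) and Casp6 (0.44). Of 16 further death receptor and adaptor genes, 3 were lower and 2 higher. The necroptosis genes Ripk3 and Mlkl were lower at -1.27 and -0.60, and so was the TNF receptor gene Tnfrsf1a at -0.39, while Cflar, which blocks caspase-8, was higher at 0.26; the neighbours of Ripk3 had a median of -0.72, and the knockout mean of Mlkl (4.49) was below the array median. Of 20 partners in excision repair and translesion synthesis, 2 were higher and 1 lower, namely Xpa (0.80), Poli (0.67) and Rrm2 (-0.47). The lower shares were 16.7% in the BCL2 list, 9.52% in the caspase list, 18.8% in the receptor list and 5% in the repair list, and the higher shares 8.33%, 4.76%, 12.5% and 10%, in lists of 12 to 21 genes, against 10.4% lower and 8.53% higher among all genes. The higher count of the receptor list was 0 without any 1 of the arrays other than wild-type replicate 1. The call of Cflar was lost without any 1 of the 6 arrays (adjusted p up to 0.136), that of Casp6 without any 1 knockout array (up to 0.0771), that of Mlkl without knockout replicate 1 or wild-type replicate 3 (up to 0.0589) and that of Tnfrsf1a without knockout replicate 2 (0.0528).

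**Figure D5:**
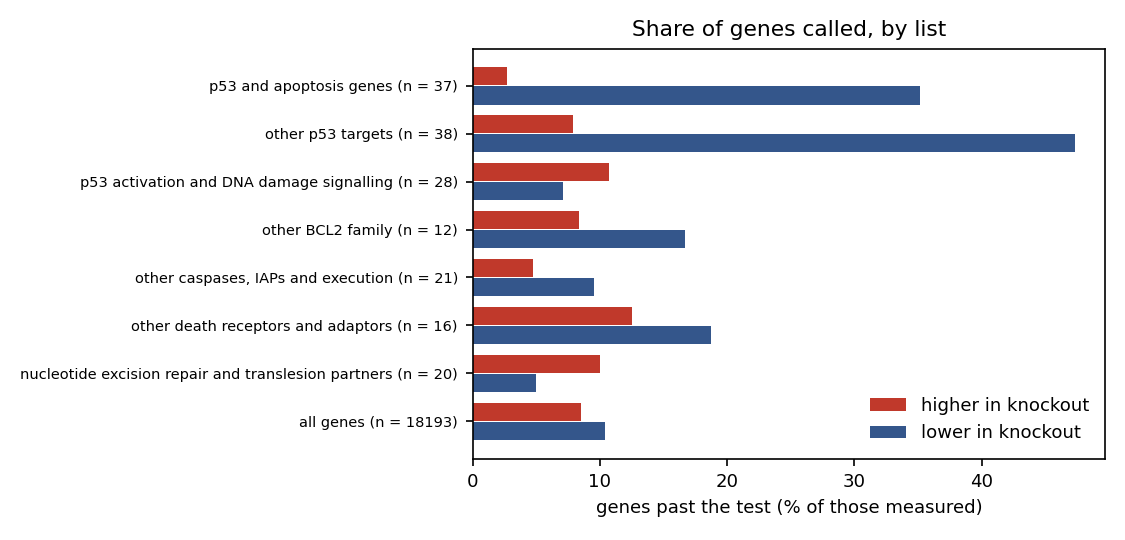
Percentage of measured genes that were higher (red) or lower (blue) in Med23 knockout cells past the test, for the 37 p53 and apoptosis genes, 6 lists of other pathway genes and all 18193 genes. The lower share was 35.1% in the p53 and apoptosis genes and 47.4% in the other p53 targets, against 10.4% of all genes.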

How the data were processed

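Total RNA from 6 samples was hybridised as biotinylated cRNA to Affymetrix arrays, per the labels' protocols. The authors deposited 1 table of log2 values, with 1 column for each array; their range gave the unit. RMA and MAS5 are both named in the submitters' processing notes, with no role or version, and no genome build is given in the sources used here. The values were used as deposited; detection calls were not used here. The table held 45101 probe sets, and its 64 control probe sets were dropped. The platform annotation gave 34945 probe sets 1 symbol, 932 several and 9160 none; 34741 were matched to current RefSeq symbols (GRCm38.p6) by Entrez identifier.

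Each of 45037 probe sets was tested with limma 3.58.1 in R 4.3.3 (lmFit, eBayes without trend, 4 residual and 3.08 prior degrees of freedom), two-sided; p-values were adjusted over all of them by Benjamini-Hochberg, with 0.05 as the threshold. Groups came from the sample titles; nothing says how the biological replicates were made, so p-values measure the spread between these samples. Intervals are moderated 95% intervals. Tested on simulated data, this found 42% of changes of 0.5 (log2) and 98% of changes of 1, with 9 false calls. The simulation changed 50 probe sets at each size, far fewer than were called here, and gave both groups equal noise. Its rates therefore need not hold for the real arrays.

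The genes and lists were chosen with earlier results of these data known. Named genes were Med23, all 39 genes, and from each further list the up to 4 genes past the threshold that changed most. The neighbour comparison, with 10 genes on each side, was chosen after seeing the data. Alternatives were quantile normalization, median centring, a filter on dim probe sets, a trended robust variance, array weights, the mean of a gene's probe sets, a replicate block and leaving out each array.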

Additional observations from a re-analysis of the deposited data

How the results depend on the processing

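Of the 14 genes past the test, 9 kept their call and direction under all 13 alternatives: Mdm2, Cdkn1a, Zmat3, Sesn1, Gadd45a, Plk2, Plk3, Phlda3 and Casp8. The calls of Pmaip1, Bid, Gadd45b, Mcl1 and Casp9 ended under at least 1, and none of the 14 changed sign. With a replicate block the calls of Pmaip1, Bid and Gadd45b ended (adjusted p = 0.0540, 0.0836 and 0.0853). Of 22 other named genes, Med23 included, 6 lost their call under at least 1 alternative and none changed sign. The cell type markers were not among these 22. The count of lower genes was 10 to 14 when 1 array was left out and 12 to 17 under the other alternatives. The count of higher genes was 1 to 2 when 1 array was left out (2 without wild-type replicate 1), 3 with the filter on dim probe sets, 3 with the trended robust variance and 2 with array weights. With the mean of a gene's probe sets the count was 1, but that gene was Aen (0.30, adjusted p = 0.00669) and not Casp9. The genes of the 6 other lists past the test numbered 40, 25 to 43 when 1 array was left out (25 without knockout replicate 2) and 61 with the trended robust variance. Same-numbered replicates did not deviate together (correlations of -0.133, -0.0588 and 0.000831), so the numbers were not taken as pairs; with a replicate block 12 genes were lower and 1 higher, and all genes gave 1000 higher and 1507 lower calls in place of 1551 and 1890. With the trended robust variance, all genes gave 2203 higher and 2325 lower. The filter on dim probe sets left 11606 genes and gave 2030 higher and 2128 lower, and array weights gave 1919 and 2028. Without 1 array, the higher calls over all genes fell to 891, 800 and 816 without knockout replicates 1, 2 and 3 and to 963 without wild-type replicate 2. Centring on array medians moved the median of all genes by under 0.1 (0.02 to 0.03).

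Of the 23 genes that did not pass, 10 passed under at least 1 alternative. These were Ccng1, Bcl2l1, Bcl2l11, Trp53inp1, Sesn2, Gadd45g, Ei24, Aen, Trp73 and Apaf1. Changes of sign occurred in 6 genes that did not pass. Over the fits that left out 1 array, the log2 fold change ran from -0.111 to 0.0215 for Mdm4, -0.0494 to 0.0884 for Bak1, -0.171 to 0.0290 for Bcl2, -0.524 to 0.103 for Trp53inp1, -0.130 to 0.0763 for Ddit4 and -0.515 to 0.0661 for Polk. Leaving out wild-type replicate 3 turned the sign of Mdm4, Bak1, Trp53inp1, Ddit4 and Polk. The mean of all probe sets gave -0.0570 for Bak1, and array weights gave 0.00479 for Ddit4. The cause was not tested. Signals near background limit Casp8, Fas and Trp63.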
